A study of Mus musculus with 8 samples.

Results

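The heart is a muscle that beats without pause, and its RNA is dominated by a small set of cardiomyocyte genes. Cardiomyocytes carry sarcomeres, the arrays of thick myosin and thin actin filaments that shorten the cell, and are packed with mitochondria that burn mainly fatty acids. Endothelial cells, fibroblasts, smooth muscle cells, macrophages and blood share the tissue, and the atria and ventricles use partly different isoforms of the same contractile proteins.

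The RNA levels described here are those of the 4 wild-type hearts in a mouse study of PUS1, the pseudouridine synthase encoded by Pus1. The hearts were chosen as the samples labelled wild type out of 8 samples in all; the other 4 were homozygous Pus1 mutants, whose values are not described. They came from 2 females, WT1 and WT2, and 2 males, WT3 and WT4, all with unaltered Pus1, backcrossed for 5 generations to C57BL/6J, aged 14 to 16 weeks and with no treatment named in the labels. Per the labels, RNA was taken from a frozen piece that held some atrium and some ventricle. In each sex 1 heart was labelled with Cy5 (WT2 and WT4) and 1 with Cy3 (WT1 and WT3), on 4 Agilent 2-colour arrays of 1 slide, each beside the heart of another animal. The female hearts were on arrays 1 and 2 and the male hearts on arrays 3 and 4, so that sex and array position cannot be told apart.

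Of 55681 probes that were not controls, 24134 were well above background in all 4 hearts, as the scanner software called it. They gave 18933 measured features, of which 12467 were genes with a symbol and 6466 had only an accession or a genomic interval. This was 59.4% of the 20972 gene symbols on the array. Another 23488 probes were above background in no heart and 8059 in 1 to 3 hearts. Each heart had between 46.3% and 53.8% of its probes above background. A level is a normalized log2 intensity, and a percentile is the rank of a feature among all measured features of that heart, with 100 the brightest. A gene was represented by its brightest probe. Where a gene had 2 or more measured probes (2776 genes), the brightest and dimmest differed by a median of 1.49 on the log2 scale and by 4.06 at the 90th percentile. The order of brightness between genes is therefore an order of probes, not of RNA amounts.

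Coding transcripts were detected more widely than others. Of probes for coding RefSeq transcripts 58.2% were above background in all 4 hearts, against 30.04% for noncoding RefSeq transcripts and 24.35% for genomic intervals. Olfactory receptor genes, which serve the nose, were measured for 55 of 1072 on the array (5.13%), with a median percentile of 13.9. Vomeronasal receptor genes were measured for 12 of 256 (4.69%). Marker lists of liver, brain, kidney, pancreas and testis had 13 of 38 genes measured (34.2%), and none of 6 markers of lung, airway and thymus was above background in all 4 hearts. Chromosome X had 395 of 832 genes measured (47.5%), against 60.0% for the autosomes. None of the 21 genes of chromosome Y was above background in all 4 hearts.

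The labels on sex could be checked. Xist, the X-linked RNA of the inactive X chromosome, was at 9.92 and 9.38 in the females and at 6.67 and 6.35 in the males, where it was not well above background. That is at least 8.21-fold higher in females, measured against the dimmest signal that counted as above background on each array. Ddx3y, a Y-linked RNA helicase gene, was at 6.12 and 6.36 in the females, not well above background, and at 10.80 and 10.84 in the males, or at least 19.1-fold lower in females. Pus1 itself lay near the middle of the range, with levels of 9.22 and 9.23 in the females and 8.92 and 9.01 in the males and a mean percentile of 45.5. The pseudouridine synthases as a list, Pus1 included, lay around it: 11 of 13 were measured, with a median percentile of 39.8. Trub2 was the brightest of them at a mean percentile of 89.6.

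Genes of contraction and energy supply were among the brightest. Mb, which encodes the oxygen store myoglobin, stood at 18.74, 18.27, 18.29 and 19.00 in WT1 to WT4. Myl2, the ventricular regulatory light chain of myosin, stood at 18.92, 18.26, 18.24 and 18.94. Myh6, the fast adult myosin heavy chain, stood at 18.59, 18.26, 18.42 and 18.88. Each of these 3 was at or above percentile 99.6 in every heart. The ventricular essential light chain Myl3 (18.71, 18.26, 18.34, 18.95) and the thin-filament tropomyosin Tpm1 (18.03, 18.27, 18.50, 18.86) followed. In WT2 and WT4, the hearts in Cy5, 30 and 42 spots were saturated, against none in the hearts in Cy3. Spots of these 5 genes were among them in both Cy5 hearts, so their Cy5 values are lower bounds and have no order.

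All 22 genes of the thick filament, thin filament and Z-disc were measured, 16 of them in the top 5% of features. Their median percentile was 98.8, against 49.5 over all measured features. Cardiac troponin T (Tnnt2) had levels of 17.68, 17.61, 17.63 and 18.07. Tcap, the titin cap of the Z-disc, had levels of 18.47, 17.90, 17.90 and 18.18. The general cardiomyocyte markers had 16 of 16 measured and a median percentile of 97.3.

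Mitochondrial genes of the respiratory chain were nearly as bright. Complexes II to V had 42 of 42 subunits measured with a median percentile of 98.6, and complex I had 37 of 37 with 97.7. Cox6a2, the heart-type subunit of cytochrome oxidase, stood at 18.59, 18.13, 18.11 and 18.47. Ndufa13 led complex I with 18.15, 17.71, 17.69 and 18.05. The beta subunit of the ATP synthase, Atp5b, stood at 17.87, 17.98, 17.66 and 18.32. Slc25a4, the heart form of the adenine nucleotide carrier that hands ATP to the cytosol, stood at 18.19, 18.29, 17.95 and 18.83 (saturated in WT2 and WT4).

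Fuel use showed the same gradation by list. The TCA cycle and pyruvate dehydrogenase list had a median percentile of 96.2 over 25 genes, glycolysis 95.9 over 18 genes, and fatty acid uptake and oxidation 94.2 over 26 genes. Fabp3, the heart fatty acid binding protein, stood at 17.96, 18.23, 17.92 and 18.56, and Acaa2, the last thiolase of mitochondrial beta-oxidation, at 17.09, 17.00, 17.36 and 17.34. Among glycolytic genes Aldoa (17.77, 17.89, 17.75, 18.33) and Gapdh (17.76, 17.88, 17.78, 18.32) led. The creatine and energy transfer list had a median percentile of 93.3 and the ketone and branched-chain list 89.9, led by Oxct1, which activates ketone bodies, at 15.94, 15.77, 16.11 and 16.19.

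Cytosolic ribosomal proteins were bright and narrow in range: 43 of 43 were measured, all between percentiles 90.5 and 99.3, with a median of 97.3. Mitochondrial ribosomal proteins had 40 of 40 measured with a median of 87.2 and a wider range, 42.5 to 96.5. Calcium handling genes had a median percentile of 86.2. Atp2a2, the calcium pump of the sarcoplasmic reticulum, stood at 16.70, 17.08, 16.72 and 17.06, and Hrc, a calcium-binding protein of the same store, at 16.82, 16.45, 16.79 and 16.57. Ion channels and gap junction genes were dimmer, with 15 of 18 measured and a median of 55.9. Hcn2, a pacemaker channel, was the brightest of them at 14.88, 14.43, 14.65 and 14.16, while Hcn4, the main channel of the sinus node, was above background in no heart.

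Cardiac transcription factors had 21 of 23 measured with a median percentile of 69.6. Hopx (14.92, 14.40, 14.85, 14.25) and the estrogen-related receptor Esrra (14.45, 14.13, 14.61, 14.26), a regulator of mitochondrial genes, were the brightest. Among the other cell types, fibroblast and matrix genes had all 15 measured with a median of 84.0, led by Dcn at 16.19, 16.34, 16.03 and 16.05. Endothelial genes had all 15 measured with a median of 78.6, led by Fabp4 at 16.09, 15.90, 15.91 and 15.91. Smooth muscle and pericyte genes followed at 73.6 and macrophage genes at 55.8. Cell cycle genes were at the low end, with 16 of 22 measured and a median of 28.1. In bulk tissue, fewer cells of a type and less RNA per cell cannot be told apart.

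**Figure D1:**
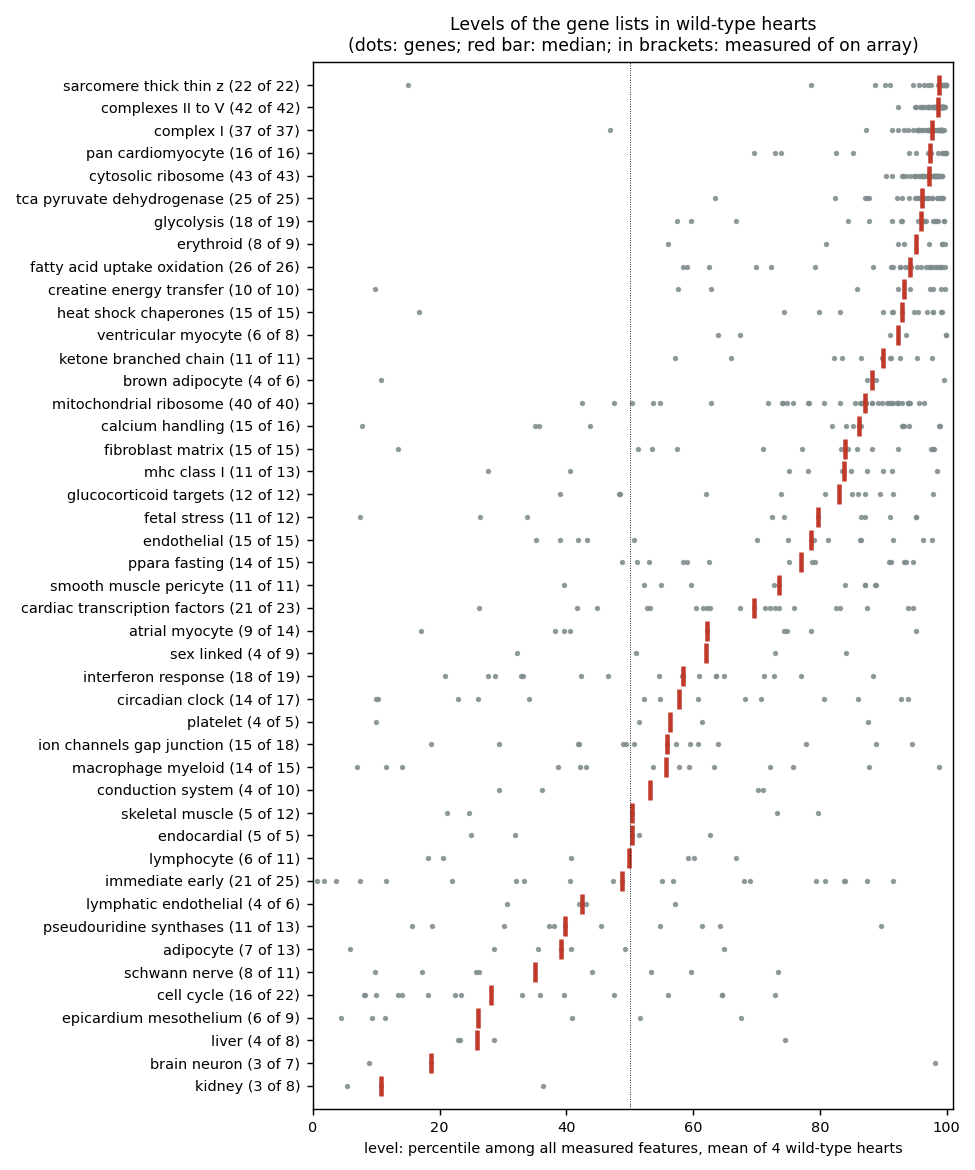
Levels of the gene lists in the wild-type hearts. The x axis is the percentile of a gene among 18933 measured features, averaged over 4 hearts, each grey dot is a gene and each red bar the median of its list, with measured genes of those on the array in brackets. The sarcomere list and respiratory complexes are at the right end with medians of 98.8, 98.6 and 97.7, and markers of liver, brain and kidney at the left end.

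Isoform pairs, in which one gene is used mainly in the heart and its relative elsewhere or at another stage, showed wide gaps in brightness. Myh6 averaged percentile 99.9, whereas Myh7, the slow heavy chain used in the fetal ventricle, averaged 91.1 with levels of 14.24, 13.73, 12.95 and 13.48. Cardiac troponin I (Tnni3) was at 17.39, 17.05, 17.22 and 17.19. The slow skeletal form Tnni1, used before birth, was at 7.62, 7.43, 7.49 and 6.87, a mean percentile of 7.43. The glucose transporter genes Slc2a4, insulin-responsive, and Slc2a1, basal, stood at 15.71, 15.29, 15.60 and 15.42 and at 9.84, 9.93, 9.70 and 9.96. These are levels of different probes, and the other probe of Myh6 stood at 14.50, near the level of Myh7, so the gaps are not amounts of RNA. Ldhb and Ldha, the heart and muscle forms of lactate dehydrogenase, were close, with mean percentiles of 98.7 and 98.1. Hk2 and Hk1, both hexokinases, were at mean percentiles of 87.7 and 91.4. The pump inhibitor Pln was at 14.09, 14.32, 14.62 and 14.40. Its atrial relative Sln was at 7.97, 14.35, 6.69 and 8.997, not well above background in WT3.

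**Figure D2:**
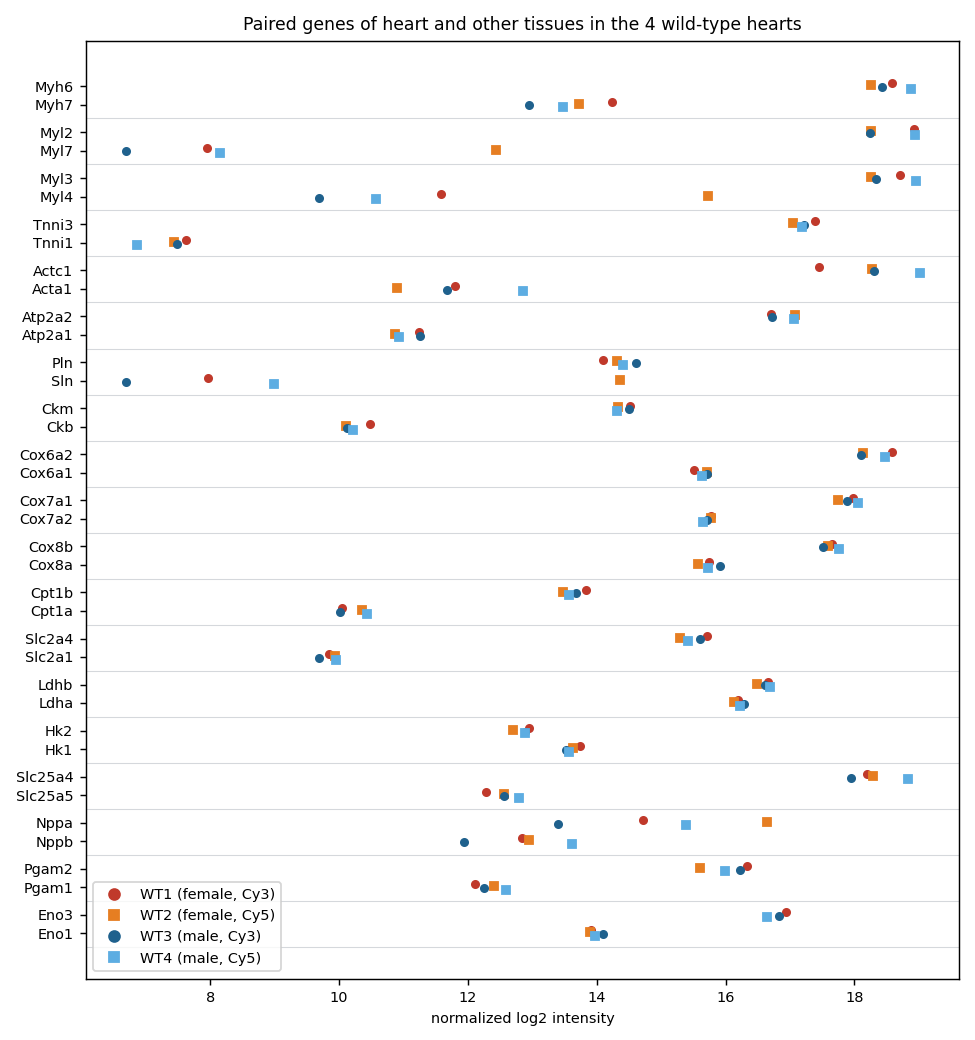
Levels of 19 pairs of related genes in each wild-type heart, on the x axis as normalized log2 intensity. Each point is 1 heart, coloured by heart, with circles for Cy3 and squares for Cy5. Most pairs are tight within a gene, while Myl7, Myl4 and Sln, the atrial members, have WT2 far to the right (12.43, 15.72 and 14.35).

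Promoter windows were searched for 5 sequence motifs. The windows are the first listed for each gene in RefSeq (build GRCm38.p6), from 250 bases before the start to 50 after it, for 27025 genes. Motifs were TATAAA (the TATA box), AGATAA (the site of GATA factors) and CATTCC (the M-CAT element of muscle genes). For MEF2 a loose pattern was searched (CTA, then any 4 bases, then TAG), so a match need not be a MEF2 element. For NRF1, a regulator of mitochondrial genes, the site was GCGCA, then any base, then GCGC. Both strands were searched, and matches to different motifs could overlap. CATTCC was found in 8 of 18 sarcomere windows (44.4%), against 14.6% of all windows, and the loose MEF2 pattern in 5 of 18 (27.8%), against 3.70%. In the 11 calcium handling windows both were found in 0. AGATAA was found in 4 of 18 sarcomere windows (22.2%), against 11.4% of all windows. TATAAA was found in 2 of 18 (11.1%), against 14.2%. Not every pair of motif and list is given. The NRF1 site was found in 9 of 33 windows of complexes II to V (27.3%) and in 7 of 33 of complex I (21.2%), against 4.78% of all windows, and in none of the 18 sarcomere windows. Among all measured genes it was found in 9.75% and TATAAA in 8.10%. These are matches of letters and not sites of binding. Windows of 4 bright genes are shown because they hold different motifs. Capitals mark the matches.
Myh6, chr14:54966558-54966857, reverse strand: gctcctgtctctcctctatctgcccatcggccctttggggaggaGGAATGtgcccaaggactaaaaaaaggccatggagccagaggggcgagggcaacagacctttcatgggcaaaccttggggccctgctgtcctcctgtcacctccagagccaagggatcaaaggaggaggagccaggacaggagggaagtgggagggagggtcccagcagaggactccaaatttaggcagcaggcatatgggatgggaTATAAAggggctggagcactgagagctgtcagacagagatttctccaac
Myl2, chr5:122092474-122092773, forward strand: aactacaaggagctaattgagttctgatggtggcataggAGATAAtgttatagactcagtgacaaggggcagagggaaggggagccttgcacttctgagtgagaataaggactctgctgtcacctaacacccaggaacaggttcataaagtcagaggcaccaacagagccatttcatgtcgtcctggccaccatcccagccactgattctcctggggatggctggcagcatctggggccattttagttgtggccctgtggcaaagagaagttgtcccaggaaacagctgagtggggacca
Nppa, chr4:148000472-148000771, forward strand: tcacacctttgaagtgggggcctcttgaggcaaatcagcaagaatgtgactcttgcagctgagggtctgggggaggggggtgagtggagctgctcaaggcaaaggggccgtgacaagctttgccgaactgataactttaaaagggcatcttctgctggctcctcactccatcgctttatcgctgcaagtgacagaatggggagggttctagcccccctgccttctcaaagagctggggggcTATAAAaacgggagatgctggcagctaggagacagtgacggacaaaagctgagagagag
Ndufa5, chr6:24527477-24527776, reverse strand: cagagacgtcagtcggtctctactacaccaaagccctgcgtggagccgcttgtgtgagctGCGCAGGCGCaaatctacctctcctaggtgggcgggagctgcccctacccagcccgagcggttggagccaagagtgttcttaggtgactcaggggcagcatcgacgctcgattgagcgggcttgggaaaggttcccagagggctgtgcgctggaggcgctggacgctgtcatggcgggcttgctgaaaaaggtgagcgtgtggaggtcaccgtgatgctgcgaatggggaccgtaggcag
Myh6 holds TATAAA and a CATTCC match on the opposite strand, Nppa holds TATAAA, Myl2 holds AGATAA, and Ndufa5, a complex I subunit, holds the NRF1 site.

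Many of the brightest probes did not belong to muscle genes. Of the 30 brightest named genes, 11 were in a list or an isoform pair. In 15 of the 30, the female mean was lower than the male mean by more than 1. Elk1, which encodes a transcription factor, stood at 17.04 and 18.02 in the females, against 19.80 and 18.83 in the males, and its other probe at 6.63 on average, above background in no heart. Slc10a1, a bile acid transporter gene of the liver, stood at 16.68 and 18.005 in the females, against 19.75 and 18.77 in the males, and its other probe at 6.45, above background in no heart. Kctd14 stood at 16.61 and 18.02 in the females, against 19.82 and 18.83 in the males, with other probes at 7.01 and 6.71. Elk1, Slc10a1 and Kctd14 were saturated in both Cy5 hearts. The 4.5S RNA gene Rn4.5s had the same order of hearts, 16.90 and 18.01 in the females, against 19.64 and 18.79 in the males. In another group the Cy3 hearts were brighter: Dcc, a neuronal guidance receptor gene, stood at 17.77 and 18.15 in the Cy5 hearts WT2 and WT4, against 18.75 and 18.68 in the Cy3 hearts WT1 and WT3. Its other probes averaged 6.44 and 6.17 and were above background in no heart. Zfp628 averaged 18.56, and its other probe 9.71. Of the 19 among the 30 that had another probe on the array, 17 had one more than 4 (log2) dimmer. The 5 probes of Tpm1 averaged between 7.46 and 18.41, and the second brightest stood at 18.16. What these probes bind was not tested, and all levels given here, those of the muscle genes included, are levels of probes.

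Most features differed little among the 4 hearts. The spread is the SD of the hearts about the mean of their own dye, on the log2 scale, and its median over all measured features was 0.160. An SD over 0.5 was counted as variable, which held for 1684 features, or 8.89% of the 18933 measured, 799 of them named genes. Both males read above both females in 77.91% of the variable features, against 22.03% of all features. WT4 was the heart farthest from the mean of the 4 in 49.35% of the variable features, against 32.86% of all. WT2 was the farthest in 25.12%, against 24.86% of all. Rank correlations between hearts were 0.981 for WT1 with WT2 and 0.983 for WT3 with WT4, and 0.954 to 0.976 between hearts of different sex, as a description across 18933 features that share their array and labelling.

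Several lists of basic machinery held no variable gene, against 8.89% of all features. None of the 43 cytosolic ribosomal, 40 mitochondrial ribosomal, 37 complex I, 42 complex II to V, 15 calcium handling, 25 TCA cycle and 18 glycolysis genes was variable. Their median SDs lay between 0.103 and 0.193, the highest being the TCA cycle list, above the 0.160 of all features. Sln, also on the calcium handling list of 16, was not measured in all hearts and so was not counted. It read 7.97, 14.35, 6.69 and 8.997 in WT1 to WT4. The ketone and branched-chain list had the lowest median SD of all lists, 0.0898, with 1 of 11 genes variable. Fatty acid oxidation (26 genes), creatine (10), pseudouridine synthase (11) and cell cycle (16) genes also had none variable. At the share of all features, lists this small would hold few variable genes. Their median SDs were 0.177, 0.180, 0.181 and 0.112, so that only the cell cycle list lay below the 0.160 of all features. Atp2a2 had an SD of 0.012 and Pcna, a replication clamp, of 0.0105. A difference between dyes does not enter this SD. Atp2a2 read 16.70 and 16.72 in the Cy3 hearts, against 17.08 and 17.06 in the Cy5 hearts. Pus1 had an SD of 0.185.

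Blood genes were the most uneven list. All 8 measured erythroid genes were variable, against 8.89% of all features, with a median SD of 1.35. Their median shift from the gene mean was 1.55 in WT2, against -0.55, -0.31 and -0.80 in WT1, WT3 and WT4. The beta globin gene Hbb-b1 read 16.77 in WT2, against 13.85, 13.44 and 13.58 in the others. Alas2, which starts haem synthesis in red cells, read 15.83 in WT2, against 13.91, 13.55 and 12.91. Hba-a2, an alpha globin gene, did not follow, with 16.65, 18.36, 19.31 and 19.02 in WT1 to WT4 and saturation in both Cy5 hearts. The globin genes are near-identical copies and their probes may share targets. Platelet genes showed the same heart apart: Pf4, a platelet chemokine, read 13.72 in WT2, against 12.51, 12.82 and 12.48 in WT1, WT3 and WT4. By the SD over the 3 hearts other than WT2, 5 of 8 erythroid and 0 of 4 platelet genes exceeded 0.5, against 1541 of all 18933 features. With all hearts 8 of 8 and 3 of 4 did, against 8.89% of all features. The measures differ, since the SD over 3 hearts takes out no dye mean.

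Fat and atrial genes were also high in WT2. Cfd, the adipocyte protease adipsin, had the largest spread of all named genes, at 9.92 and 13.87 in the females and 7.41 and 8.75 in the males. Car3, a carbonic anhydrase of fat and slow muscle, read 8.66 and 12.12 in the females and 7.37 and 8.30 in the males. The median shift of the 7 measured adipocyte genes was 1.21 in WT2. Another 6 of the 13, among them Adipoq, were not above background in all hearts. Adipoq read 9.38 in WT2, the one heart where it was well above background.

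Myl4, the atrial essential light chain, read 11.58 and 15.72 in the females and 9.69 and 10.57 in the males, and moved between percentiles 54.2 and 97.5. Myl7, the atrial regulatory light chain, read 7.96 and 12.43 in the females and 6.69 and 8.14 in the males. It was not well above background in WT3. Nppa, the atrial natriuretic peptide, was high in all hearts, at 14.71 and 16.64 in the females and 13.39 and 15.38 in the males. Dkk3, a gene of the Dickkopf family on the atrial list, read 8.86 and 11.97 in the females and 7.88 and 7.86 in the males. The ventricular markers Myl2 and Myl3 had SDs of 0.483 and 0.394, with saturated spots in WT2 and WT4. The ventricular list had a median SD of 0.425, against 0.160 over all features. The median shift of the ventricular list in WT2 was -0.15, and that of the atrial list 0.43. How much of each piece was atrium was not recorded in the labels, and its part in these values was not tested. All 6 measured epicardial genes, of 9 on the array, were highest in WT2, as were 25.3% of all features. Of the 6, 2 were variable, against 8.89% of all features. Wt1, an epicardial transcription factor, read 9.46 and 10.25 in the females and 9.06 and 9.21 in the males.

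**Figure D3:**
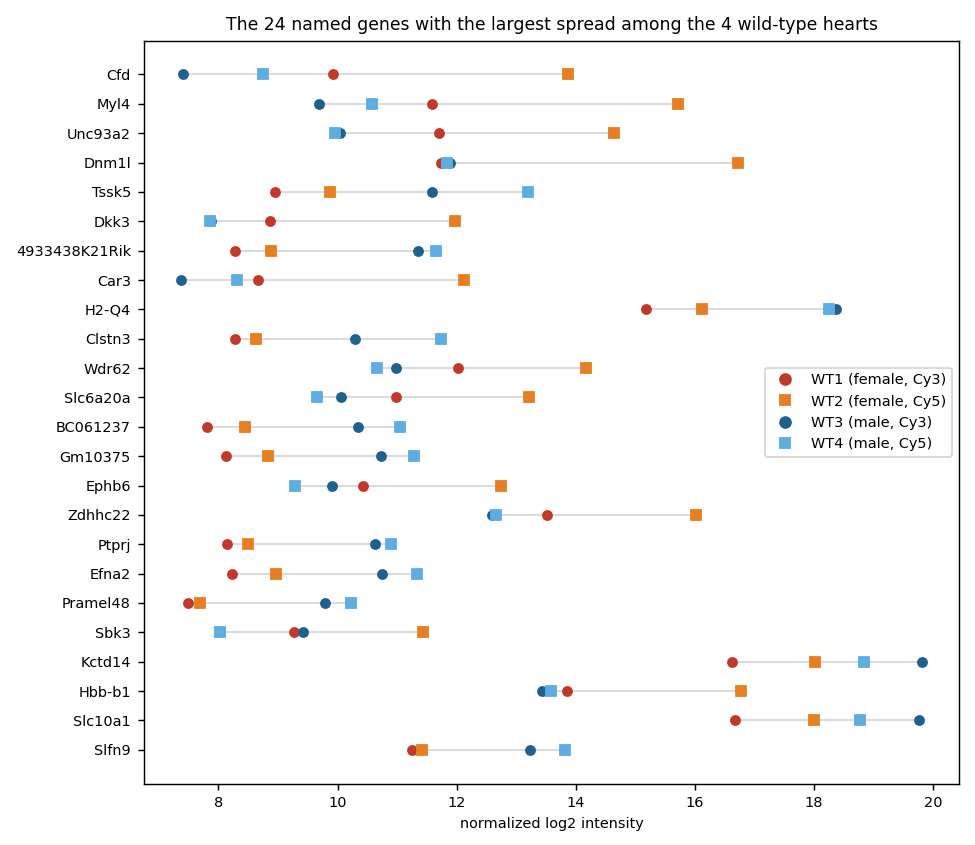
The 24 named genes with the largest spread, most variable at the top. The x axis is normalized log2 intensity, each point is 1 wild-type heart, with circles for Cy3 and squares for Cy5, and the grey line spans the 4 values. In Cfd, Myl4, Car3 and Hbb-b1 the heart WT2 stands at the right, and in Tssk5, H2-Q4 and Ptprj both males do.

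Some single genes outside these lists were highest in WT2 too. Dnm1l, which encodes the mitochondrial fission protein DRP1, read 16.72 in WT2, against 11.74, 11.89 and 11.83 in WT1, WT3 and WT4. Zdhhc22, a palmitoyltransferase gene, read 16.01 in WT2, against 13.51, 12.59 and 12.66. Unc93a2 read 14.64 in WT2, against 11.70, 10.03 and 9.95, while its other probes were above background in no heart. Sbk3, a kinase gene, read 11.43 in WT2, against 9.28, 9.41 and 8.03.

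In the acute response lists WT4 stood at an end, and WT1 was high in the glucocorticoid list. WT4 was lower still in the endocardial (-0.60), platelet (-0.59) and erythroid (-0.80) lists. The counts of variable genes below are to be read against 8.89% of all features. The glucocorticoid target list had 5 of 12 genes variable and a median shift of 0.52 in WT1, against -0.36 in WT4. Tsc22d3, which encodes the glucocorticoid-induced leucine zipper GILZ, read 14.00 in WT1 and 12.19 in WT4, with 13.46 in both others. Immediate early genes had 6 of 21 variable and were lowest in WT4, with a median shift of -0.38. They were highest in WT2, at 0.24, against 0.085 in WT1. Nr4a1, an orphan nuclear receptor, read 12.70, 12.83, 12.84 and 11.18, and Klf2, a flow-responsive endothelial factor, 12.68, 12.49, 12.11 and 10.695. The circadian clock list had 1 of 14 genes variable. It was Per1, in the glucocorticoid list as well, which read 13.23, 12.91, 12.75 and 11.69. Dbp, a clock output gene, read 14.21, 13.55, 14.77 and 13.69, with both Cy3 hearts above both Cy5 hearts. It was not variable about the dye means, which take out such a difference. By the SD over the hearts other than WT2, with no dye mean taken out, 6 of 14 clock genes exceeded 0.5. Of all 18933 features 1541 did. PPARα and fasting genes had 3 of 14 variable and a median shift of 0.31 in WT4. Pdk4, the brake on pyruvate use, read 15.71 there, against 14.33, 14.81 and 13.85 in WT1 to WT3. Angptl4, a lipase inhibitor, read 13.07 in WT4, against 10.95, 11.85 and 11.12. The time of day and the feeding state at sampling were not in the labels.

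Genes linked with cardiac stress varied as well: 6 of 11 measured genes were variable, against 8.89% of all features. The 6 include Myl4 and Nppa, which are on the atrial list too, with SDs of 2.74 and 0.913. The B-type natriuretic peptide gene Nppb read 12.84, 12.94, 11.93 and 13.61, and Acta1, the skeletal actin expressed in the fetal heart, 11.80, 10.90, 11.68 and 12.85. Ankrd1, a stress-induced Z-disc protein, read 14.66, 14.72, 14.70 and 15.17, with an SD of 0.230.

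**Figure D4:**
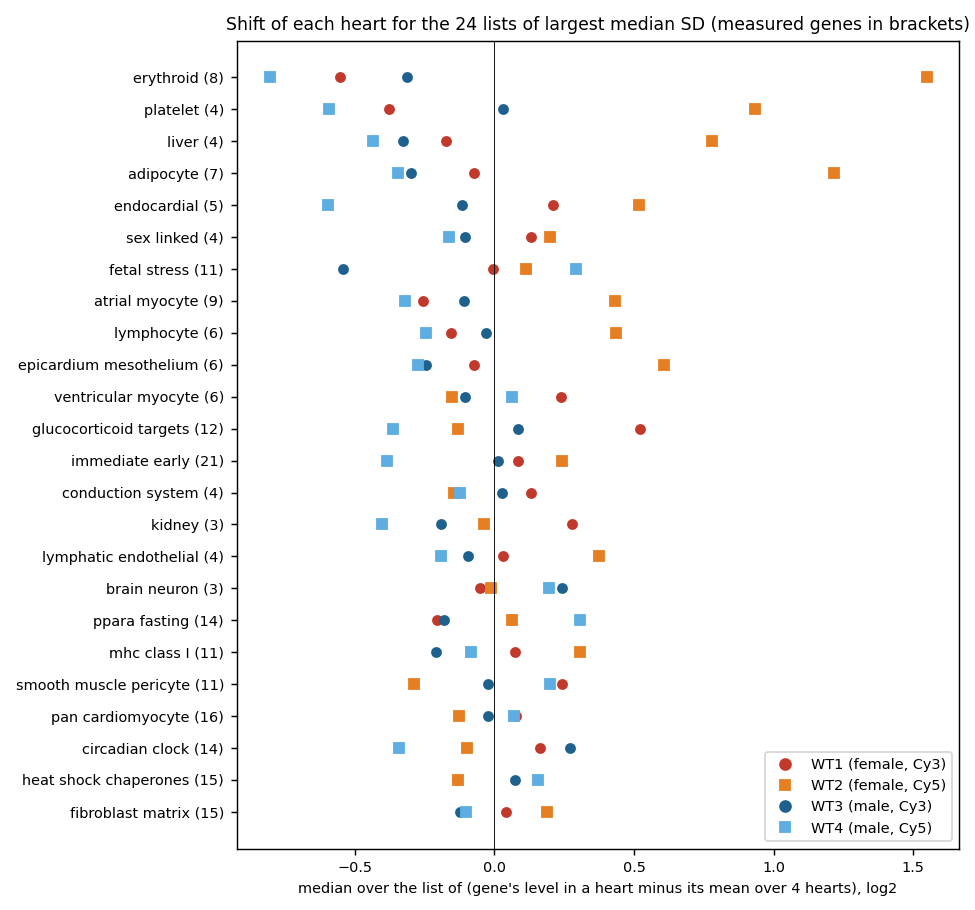
Shift of each wild-type heart for the 24 lists of largest median SD. The x axis is the median over a list's genes of the level in a heart minus the gene's mean over 4 hearts (log2), each point is 1 heart, and measured genes are in brackets. WT2 lies furthest right for the erythroid (1.55), adipocyte (1.21) and platelet (0.93) lists, and WT4 furthest left for immediate early genes (-0.38).

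The 2 female hearts were compared with the 2 male hearts within dye. In this limma fit with a dye term, Benjamini-Hochberg adjustment over 18933 features and a threshold of 0.05, 52 features (0.275%) were higher in females and 1027 (5.42%) lower. An unadjusted p under the threshold was reached by 3079 features. Of the 1079 passing features 434 were named genes, 43 higher in females and 391 lower. The fit had 1 residual degree of freedom, and an exact permutation of 2 against 2 hearts could not give a p below 0.333. Nothing here separates sex from array position or from differences between single animals. No feature passed for Cy5 against Cy3 in the same fit (0 of 18933, with 1868 at an unadjusted p under the threshold).

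Genes higher in females included those that stood out in WT2. Cfd was 14.1-fold higher in females (log2 difference 3.81 ± 0.51 SE, adjusted p = 0.00654) and Myl4 11.5-fold (3.52 ± 0.63, adjusted p = 0.0197). Without WT2 their differences were 1.84 and 1.45, in a fit that left 1 female heart and also had no dye term. The part of WT2 and that of the dye term cannot be told apart there. Of the 12 genes with the largest differences in this direction, 2 passed without the dye term and with all 4 hearts kept. In that limma fit the adjusted p was 0.158 for Cfd and 0.210 for Myl4. With the series matrix 5 of the 12 passed. Comp, which encodes cartilage oligomeric matrix protein, read 9.53 and 9.43 in the females and 8.07 and 7.63 in the males, a difference of 1.63 ± 0.16 (SE), adjusted p = 0.00281. Both females read above both males.

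Some plasma protein genes made mostly by the liver were among the 12, while the liver list as a whole was mixed. Ahsg, the fetuin A gene, read 9.55 and 10.04 in the females and 8.43 and 7.81 in the males, and was 3.19-fold higher in females (adjusted p = 0.0107). Serpina1a, an alpha-1-antitrypsin gene, read 8.28 and 9.59 in the females and 7.31 and 7.23 in the males (adjusted p = 0.0208). Serpina1c and Serpina1e, close relatives of it, had differences of 1.41 each and may share its signal. Of the 4 measured genes of the liver list, Serpina1a was the one that passed. Cyp2e1, a drug-metabolizing enzyme gene, read 7.63 and 10.41 in the females and 7.07 and 7.51 in the males. Apoa2, an apolipoprotein gene, read 11.10 and 11.21 in the females and 11.50 and 10.97 in the males, and Tat, a tyrosine-degrading enzyme gene, 7.99 and 8.31 in the females and 8.38 and 8.29 in the males. Among list genes not measured in all hearts, Alb read 7.20 and 8.44 in the females and 6.22 and 6.14 in the males, where it was not well above background. Their part in the result was not tested.

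Other single genes also passed as higher in females. Ddit4, a stress-induced inhibitor of mTOR, read 13.71 and 13.31 in the females and 12.68 and 11.73 in the males (2.47-fold, adjusted p = 0.00731). Nppa was 2.45-fold higher in females (adjusted p = 0.00425), higher in both dye pairs although its male value in Cy5 exceeded its female value in Cy3. Cytl1, an endocardial marker, read 10.13 and 10.28 in the females and 9.30 and 8.16 in the males (adjusted p = 0.0274). Vwf, which encodes von Willebrand factor, read 13.16 and 13.42 in the females and 12.43 and 11.80 in the males (adjusted p = 0.0249). It was the one of 15 endothelial genes that passed. Ccn2, a matrix growth factor gene chosen here after its values were seen, read 13.23 and 13.54 in the females and 12.19 and 12.003 in the males (adjusted p = 0.00677). Kdm6a, an X-linked histone demethylase that escapes X inactivation, read 9.03 and 8.85 in the females and 8.14 and 7.73 in the males, 2.01-fold higher in females (adjusted p = 0.011).

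More genes were lower in females. With processed signals in place of the median spot signals, 83.5% of calls were lower in females, against 95.2% here. Tssk5, a kinase gene known from the testis, read 8.95 and 9.88 in the females and 11.59 and 13.20 in the males, a difference of -2.99 ± 0.20 (SE), adjusted p = 0.00134. H2-Q4, an MHC class I gene, read 15.18 and 16.12 in the females and 18.37 and 18.26 in the males (-2.67 ± 0.25, adjusted p = 0.00262). It was the one MHC class I gene of 11 measured to pass. H2-K1 (13.43 and 13.56 in the females, 13.11 and 13.19 in the males) and B2m (13.68 and 13.93, against 13.30 and 13.53) had differences of 0.34 and 0.40 in the opposite direction that did not pass. The MHC class I genes are close copies, so probes can share targets. Efna2, an ephrin ligand gene, read 8.23 and 8.97 in the females and 10.75 and 11.33 in the males (5.42-fold lower in females, adjusted p = 0.0013). Actc1, cardiac actin, read 17.45 and 18.28 in the females and 18.31 and 19.01 in the males (adjusted p = 0.0249), with a saturated spot in 1 of the hearts.

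Other probes of the same genes often did not share the difference. Ptprj, a receptor tyrosine phosphatase gene, had 8.14 and 8.49 in the females and 10.62 and 10.90 in the males at its brightest probe. Its second probe had 8.09 and 8.44 in the females and 8.22 and 7.97 in the males. Eif2s3x, the X-linked gene of a translation initiation subunit, had 8.51 and 8.46 in the females and 10.76 and 10.44 in the males at its brightest probe. Its other probe had 9.45 and 9.30 in the females and 9.32 and 8.94 in the males. The Y-linked copy Eif2s3y had 7.29 and 7.51 in the females and 11.41 and 11.38 in the males. Itgam, a myeloid integrin gene, had 16.19 and 16.33 in the females and 17.43 and 17.64 in the males, whereas its other probes averaged 7.75 and 7.40.

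Over all 391 named genes lower in females, 93 had another measured probe. The median difference of those 93 was -1.29 at the probe that passed and -0.0023 at the other probes, and the other probes had the same sign for 47 of 93. Of the 43 named genes higher in females, 7 had another measured probe, with medians of 0.97 and 0.79 and the same sign for 6 of 7. Features lower in females were 9.88% of genomic intervals and 9.82% of other unnamed features, against 3.14% of named genes. By brightness they were 10.35% of the brightest 10% of features.

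**Figure D5:**
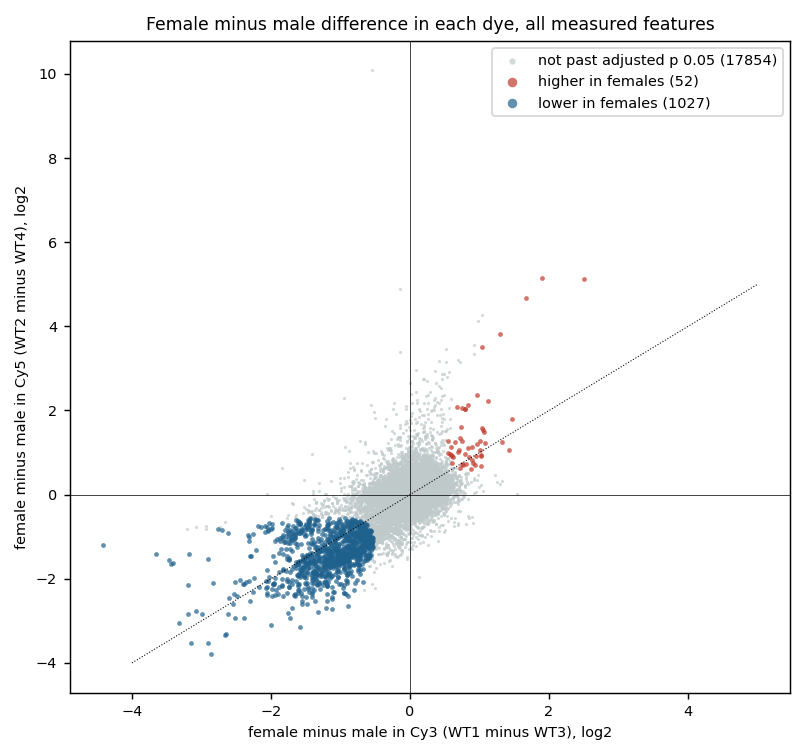
Female minus male difference of 18933 features in each dye pair (log2), on the x axis WT1 minus WT3 in Cy3 and on the y axis WT2 minus WT4 in Cy5. Red points (52) passed as higher in females, blue points (1027) as lower, grey points did not pass, and the dotted line marks equal differences. Blue points outnumber red ones, and the red points of largest difference lie above the dotted line, where the difference is larger in the pair that holds WT2.

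By list, few genes passed in either direction, to be read against 0.275% higher and 5.42% lower in females over all features. The lists with at least 2 genes higher in females were the atrial list (Nppa and Myl4, 2 of 9), the adipocyte list (Cfd and Car3, 2 of 7), the cardiac stress list (Nppa, Ccn2 and Myl4, 3 of 11) and the glucocorticoid list (Ddit4 and Tsc22d3, 2 of 12). The macrophage list had Itgam and the chemokine receptor gene Ccr2 lower in females, 2 of 14. No gene passed among the respiratory complexes, the TCA cycle, fatty acid oxidation, glycolysis, both ribosomes, calcium handling and the cell cycle. The median difference over all features was 0.03, and over the complex I genes it was -0.09 and over the cytosolic ribosomal genes 0.12.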

How the data were processed

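RNA of 4 wild-type mouse hearts was read from 4 Agilent arrays of 2 colours. Per the file headers, all were scanned on 1 slide, and Feature Extraction 10.7.3.1 (Agilent) read the spots with a design file that cites mm9. The deposited intensity of a spot and of its local background is a median over pixels, before any correction by the authors. It took the place of the means named in the plan, since the files give medians. Flags of Feature Extraction (well above background, saturated, outlier) were taken as deposited. Background-subtracted, dye-normalized intensity and the authors' deposited log2 matrix, centred on each probe's median and of unstated normalization, served as alternatives. The matrix's column medians lay between -0.02 and 0.06, and its scale and direction followed from the scanner ratios (slopes 0.949 to 1.05).

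Background was corrected with normexp (offset 50), arrays were normalized by loess, with control and outlier-flagged spots at weight 0, and channels were separated after Aquantile normalization, in limma 3.58.1 under R 4.3.3. The mutant channels entered only this normalization. Flagged spots were left out, and 31 probes without a value in a heart with them. A probe was measured when at least 0.5 of its spots were well above background in each of the 4 hearts. Of 23171 RefSeq accessions 21865 had a symbol in the RefSeq table of GRCm38.p6, so 27656 probes had 1 symbol and 28025 none. The brightest probe stood for a gene. Sex was tested with limma (lmFit, eBayes, dye term, 2-sided), and levels and spreads were described without a test. With 4 arrays, the number of hearts limits the precision.

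Members and lists were chosen with earlier results of these data known. Named are the 30 brightest genes, the 24 of largest SD, up to 12 per direction of the largest sex differences with the same sign in both dyes, each list's 4 brightest members and its member of largest SD, 19 isoform pairs and Pus1. Alas2, Angptl4, Ccn2, Ccr2, Adipoq, Alb, Hcn4, Xist, Ddx3y and Eif2s3y were chosen after their values were seen. Alternatives changed the background correction, normalization, filter, probe choice, dye term and hearts included. The mutant hearts are not described.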

Additional observations from a re-analysis of the deposited data

Results flagged for a closer look

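In 2 of the 135 list shifts and named genes examined, 1 heart stood farther from the other 3 than Dixon's 95% critical value allows. Dnm1l was at 16.72 in WT2, and the gap to the nearest heart was 0.970 of its whole range. Hbb-b1 was at 16.77 in WT2, with a gap of 0.877 of the range. Without WT2 the SD of both genes was under 0.5. Chance alone flags about 1 in 20 groups, and 5.0% of all measured features had such a heart.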

How the results depend on the processing

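With 2 hearts per sex, counts of features moved with the processing, and the cause was not tested. Each sex fit with 1 heart left out also had no dye term. It held 1 heart of a sex, which was assumed to vary like the others. The effects of the heart and of the dye term cannot be told apart in those counts. No paired analysis was possible because the female and male wild-type hearts share no replicate number and no array. The 1684 variable features became 2961 with processed signals and 3106 with the series matrix. With 1 heart left out they ranged between 1367 and 1854, by an SD that takes out no dye mean. The 52 features higher in females became 190 with quantile normalization of the wild-type channels alone, 216 with processed signals, 16 without a dye term, and 3 (without WT2) to 157 (without WT1) when 1 heart was left out (5 without WT4). The 1027 lower in females became 565 with the series matrix and 473 (without WT2) to 913 when 1 heart was left out, with 522 without WT1 and 591 without WT4. The share of calls that were lower was 95.2% as reported, 76.9% without WT1, 83.5% with processed signals and 86.1% with quantile normalization alone. The median of all features was 0.03 as reported and at most 0.10 otherwise. Cy5 and Cy3 differed for 132 features under quantile normalization alone and for none under the other alternatives run. The mean over probes kept 17 of the 30 brightest genes. In an alternative chosen after seeing the data, 2384 genes whose probes all lie within 2 (log2) of the brightest gave 1 of the 30, 108 variable genes (4.53%), 9 higher (0.38%) and 49 lower (2.06%) in females. No sex difference of the 24 named genes changed sign, and under the alternatives 208 of their values stayed past the threshold while 56 missed it. Saturated spots in WT2 and WT4 limit 38 features to lower bounds there.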
